A study of Homo sapiens with 6 samples.

Results

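Keratins are the intermediate filament proteins of epithelial cells. The 10 genes described here include those of simple epithelium (KRT7, KRT8, KRT18, KRT19) and of basal and stratified epithelium (KRT5, KRT14, KRT15, KRT17). The others are KRT80 and KRT81. All 10 were chosen by gene symbol, with the brightest probe set taken for each gene. Of the 10, 7 had a probe set with their symbol in the platform annotation, 1 each, among 15669 genes named on the array. KRT15, KRT17 and KRT81 were not analysed here.

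The 6 arrays were hybridised with labelled cDNA from MDA-MB-231, a widely used human cell line of triple-negative breast cancer. All cultures received 10% serum and 2.5 µg/ml of the selection drug puromycin, and all carried a lentiviral short hairpin RNA. The hairpin was shS100A10_1 or shS100A10_5, both directed against S100A10, or the control hairpin shNCT, with 2 arrays in each group. S100A10 encodes p11, a small S100 protein and the partner of annexin A2 under the cell membrane. Whether the cells of a group were 1 clone or a pool, and whether its 2 arrays came from separate cultures, is not given here. The p-values therefore describe the scatter of these arrays alone, possibly technical, and so few arrays give limited precision.

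A keratin filament is built from pairs of 1 type I and 1 type II keratin, and an unpaired keratin is degraded. KRT8 (type II) and KRT18 (type I) are the first pair made in simple epithelia, with KRT7 (type II) and KRT19 (type I) added in glands and ducts, whereas KRT5 (type II) and KRT14 (type I) form the filaments of basal cells. In breast tumours, the simple keratins mark the luminal lineage and KRT5, KRT14 and KRT17 the basal one. The genes lie in clusters, type II on chromosome 12 and type I on chromosome 17, with the exception of KRT18, which in RefSeq (GRCh38.p14) is the neighbour of KRT8 on chromosome 12.

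Arrays were alike in brightness, with medians of 232 to 238. S100A10 intensity was 1969 and 1545 with shS100A10_1 and 13565 and 9460 with shS100A10_5, against 88860 and 92938 with shNCT, so the arrays followed their labels. All 6 markers of mesenchymal-like breast cancer cells were measured, and their summed intensity was 186405 to 195948 with shS100A10_1, 164268 to 169869 with shS100A10_5 and 176533 to 180005 with shNCT. Of 7 luminal markers 5 were measured, with sums of 1622 to 1723 for shS100A10_1, 1584 to 1952 for shS100A10_5 and 1136 to 1190 for shNCT, most of it from EPCAM. The log2 change of EPCAM against shNCT was 0.63 with shS100A10_1 and 0.72 with shS100A10_5 (limma, adjusted p = 0.326 and 0.0624). Of the 5 luminal markers, 2 had a positive change and 3 a negative one with each hairpin. The E-cadherin gene CDH1 lay between 8.86 and 16.5 on all arrays. The 5 myoepithelial markers summed to 637 to 736 with shS100A10_1, 632 to 805 with shS100A10_5 and 577 to 591 with shNCT, and the 4 fibroblast markers measured to 761 to 935, 855 to 1089 and 811 to 838 in the same groups. The 4 leukocyte markers measured gave a sum that came nearly all from CD68. That sum was 7467 to 7947 with shS100A10_1, 4491 to 5962 with shS100A10_5 and 6451 to 6694 with shNCT. It separated the 3 groups, as did the sum of the mesenchymal-like markers. Bright genes weigh most in such a sum, and VIM was the brightest of those 6 markers. With shS100A10_5 the log2 change against shNCT was -0.30 for CAV1 and -0.11 for VIM, and 0.01 to 0.20 for the other 4. The part of all these marker lists in the results was not tested.

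None of the 7 keratins passed the threshold in any of the 3 comparisons (limma, adjusted p under 0.05 over all 16965 probe sets). That threshold was passed by 0.189% of all probe sets with shS100A10_1 against shNCT, 3.18% with shS100A10_5 against shNCT and 2.91% between the hairpins. Before adjustment, 1 keratin had p under 0.05 in each comparison, KRT80 with shS100A10_1 and KRT19 in the other two comparisons. Shares of all probe sets at that level were 8.44%, 21.0% and 19.9%. The median log2 change of the 7 keratins was -0.07 with shS100A10_1 and -0.0026 with shS100A10_5, beside 0.0056 and 0.025 over all probe sets. In RNA from whole cultures, fewer cells making a keratin and less RNA per cell cannot be told apart.

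**Figure D1:**
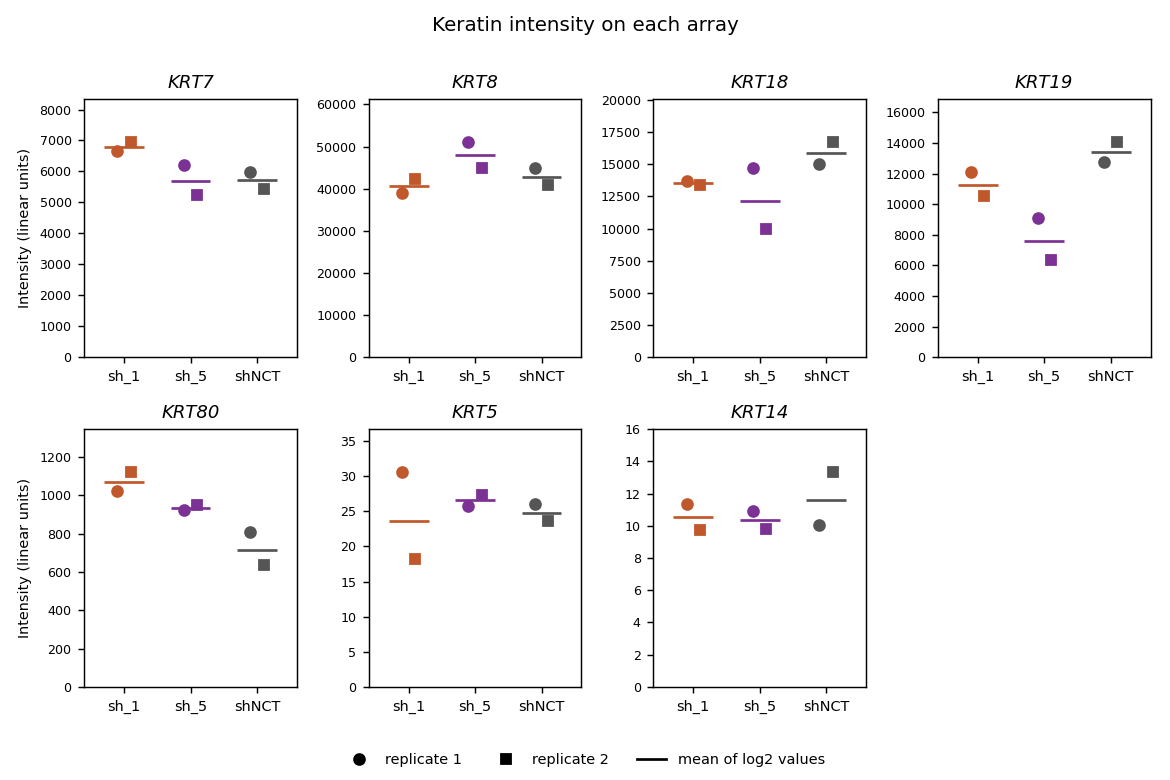
Intensity (linear units, axis from 0) of the 7 measured keratins on each array, in panels by gene, with shS100A10_1 (sh_1), shS100A10_5 (sh_5) and shNCT from left to right; points are single arrays and bars the mean of the log2 values. KRT19 lies between 6380 and 9081 with shS100A10_5, below the 12756 and 14043 of shNCT, while KRT5 and KRT14 stay under 31 on all arrays.

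KRT19, a type I keratin that lacks most of the tail domain of its relatives and whose fragments are measured in serum as a tumour marker, varied most. Its intensity was 12080 and 10531 with shS100A10_1, 9081 and 6380 with shS100A10_5, and 12756 and 14043 with shNCT. All 4 hairpin arrays were below both control arrays, and both shS100A10_5 arrays were also below both shS100A10_1 arrays. On the log2 scale the level was 12.89 ± 0.36 (SD, n = 2) with shS100A10_5 and 13.71 ± 0.10 with shNCT, a change of -0.81 (SE 0.21, 95% interval -1.27 to -0.36, 1.76-fold lower intensity). This missed the threshold (limma, adjusted p = 0.0618, unadjusted p = 0.0026).

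With shS100A10_1 the change of KRT19 was -0.25 (95% interval -0.70 to 0.21; limma, adjusted p = 0.822), and the difference between the hairpins was -0.57 (limma, adjusted p = 0.165). The intervals given here are those of single genes and are not adjusted for the number of genes. The KRT19 value with shS100A10_5 rested in part on replicate 2. It was -1.07 (limma, adjusted p = 0.0363) without replicate 1 and -0.56 (adjusted p = 0.239) without replicate 2. It also passed when the variance prior followed intensity (adjusted p = 0.00735), without probe sets below the lower quartile of brightness (0.0384) and with 16 added to each intensity (0.0356).

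Replicate 2 of shS100A10_5 also deviated from the other arrays by gene span, with a Spearman correlation across genes of 0.247 between its deviation and the span of the gene, against -0.207 for replicate 1 of shS100A10_1 and -0.135 to 0.035 on the other 4 arrays. Genes are not independent replicates, and the correlation is a description. For genes of the span of KRT19, that trend amounted to -0.09 log2 on this array and to 0.06 on replicate 1 of shS100A10_1. Subtracting the trend from every array, an alternative added once the data had been seen, gave a KRT19 change of -0.73 (limma, adjusted p = 0.0691).

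The genes whose pattern over the 6 arrays was most like that of KRT19 were MYL6, a myosin light chain, CYC1 and NDUFB7, subunits of respiratory complexes, RPS14, a ribosomal protein, and CCT7, a chaperonin subunit. Likeness was the root mean square difference of log2 values centred on each gene's mean, and it ran from 0.029 for MYL6 to 0.054 for CCT7, beside a median of 0.43 over 15668 genes. The 5 genes were picked as the nearest, so values under the median follow from the choice. In all, 64 genes (0.408%) lay within 0.1 of KRT19. What the likeness reflects was not tested. MYL6 intensity was 14076 and 12118 with shS100A10_1, 10461 and 7304 with shS100A10_5, and 14931 and 17059 with shNCT.

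KRT18, the type I partner of KRT8, was also dimmer on the hairpin arrays, by less. Its intensity was 13683 and 13382 with shS100A10_1, 14714 and 9968 with shS100A10_5, and 15040 and 16707 with shNCT. All 4 hairpin arrays were below both controls, though replicate 1 of shS100A10_5 lay close to the nearest one. The log2 change was -0.23 (SE 0.21, 95% interval -0.69 to 0.23) with shS100A10_1 and -0.39 (95% interval -0.85 to 0.07) with shS100A10_5 (limma, adjusted p = 0.844 and 0.320). Without replicate 2 of shS100A10_5 the second value was -0.11, and without replicate 1 it was -0.67 (adjusted p = 0.820 and 0.0693).

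KRT8, the type II keratin of the first simple epithelial pair, had intensities of 39028 and 42420 with shS100A10_1, 51032 and 45002 with shS100A10_5, and 44887 and 40892 with shNCT. Both shS100A10_5 arrays were above both controls, the lower of them by a small margin, while shS100A10_1 overlapped the controls. The log2 change was -0.07 (95% interval -0.46 to 0.31) and 0.16 (95% interval -0.22 to 0.55), and neither interval reached beyond 0.55 from 0 (limma, adjusted p = 0.954 and 0.643). RefSeq names 52 pseudogenes of KRT8 and 68 of KRT18, and signal from such copies could not be separated from that of the genes. The 1 of them named on the array, KRT18P55, lay between 10.8 and 18.6 on all arrays.

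The relation between the partners KRT8 and KRT18 varied from array to array. The log2 intensity of KRT8 minus that of KRT18 was 1.51 and 1.66 with shS100A10_1, 1.79 and 2.17 with shS100A10_5, and 1.58 and 1.29 with shNCT. The shS100A10_5 arrays were the highest of the 6, and the shS100A10_1 arrays overlapped the controls. Group means were 1.59 ± 0.11, 1.98 ± 0.27 and 1.43 ± 0.20 (SD, n = 2 each). Only movement across arrays can be read from this difference, since intensities of different probe sets do not compare RNA amounts, and it was not tested.

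KRT7, a type II keratin of ductal epithelium and a common pathology marker, had intensities of 6665 and 6943 with shS100A10_1, 6205 and 5241 with shS100A10_5, and 5990 and 5449 with shNCT. Both shS100A10_1 arrays were above the other 4, and shS100A10_5 spanned the controls. The log2 change was 0.25 (SE 0.17, 95% interval -0.14 to 0.64) with shS100A10_1 (limma, adjusted p = 0.773). With shS100A10_5 it was -0.0026 (95% interval -0.39 to 0.39; limma, adjusted p = 0.995), with the opposite sign, 0.016, when each array was centred on its median.

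KRT80, a type II keratin found near desmosomes in many epithelia, was the 1 of the 7 with higher intensity on all 4 hairpin arrays. Its values were 1019 and 1122 with shS100A10_1, 921 and 947 with shS100A10_5, and 807 and 634 with shNCT. The log2 change was 0.58 (SE 0.18, 95% interval 0.17 to 0.99) with shS100A10_1, a 1.495-fold higher intensity that did not pass (limma, adjusted p = 0.369, unadjusted p = 0.0098). With shS100A10_5 it was 0.39 (95% interval -0.022 to 0.79; limma, adjusted p = 0.264). The 2 comparisons share their controls, and the 2 control arrays differed from each other by more than the hairpin groups did within themselves: without replicate 1 of shNCT the values were 0.75 and 0.56, and without replicate 2 they were 0.41 and 0.21.

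Separation of the arrays was common among all genes. With shS100A10_1 the hairpin arrays did not overlap the controls for 4 of the 7 keratins, against 42.4% of all probe sets, and with shS100A10_5 for 4 of 7, against 50.5%. All 4 hairpin arrays lay below both controls for KRT18 and KRT19, which held for 9.12% of all probe sets, and above them for KRT80, which held for 10.4%. Between the hairpins 4 of 7 did not overlap, against 49.0%.

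**Figure D2:**
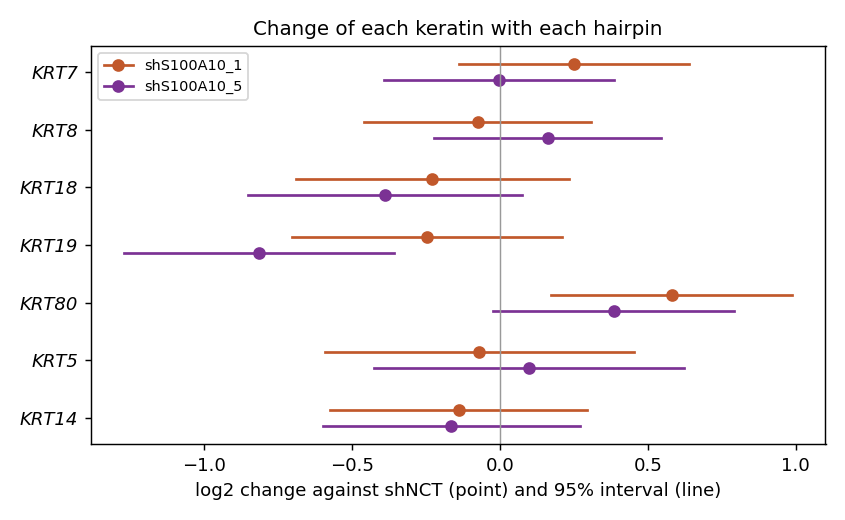
Log2 change of each measured keratin against shNCT (horizontal axis), with shS100A10_1 above shS100A10_5 for each gene; points are the limma estimates from 2 arrays a group and lines their unadjusted 95% intervals. The lines that do not reach 0 are those of KRT19 with shS100A10_5 (-1.27 to -0.36) and of KRT80 with shS100A10_1 (0.17 to 0.99).

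The basal pair was dim throughout. KRT5, mutated in epidermolysis bullosa simplex, had intensities of 30.6 and 18.2 with shS100A10_1, 25.8 and 27.4 with shS100A10_5, and 26.1 and 23.6 with shNCT. Its partner KRT14 had 11.4 and 9.76 with shS100A10_1, 10.9 and 9.81 with shS100A10_5, and 10.1 and 13.4 with shNCT. The groups overlapped for both genes.

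The deposited table holds no detection calls, so the 186 named olfactory receptor genes, which are made mainly in the nasal epithelium, were used as a view of dim signal. Of these receptors, 78.0% had a lower mean than KRT5 and 12.4% a lower mean than KRT14, while KRT7, KRT8, KRT18, KRT19 and KRT80 were each brighter than all 186. KRT5 changed by -0.07 and 0.10 with shS100A10_1 and shS100A10_5 on the log2 scale and KRT14 by -0.14 and -0.16 (SE 0.24 and 0.20; limma, adjusted p between 0.681 and 0.972). At that brightness the values set no bound on a change of the transcript.

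The other keratin genes gave no call either. Of the 16 measured among 20 other epithelial keratins, 0 passed in any comparison, and medians were 0.04 with shS100A10_1 and 0.025 with shS100A10_5. Before adjustment, 0 of the 16 had a limma p under 0.05 with shS100A10_1, beside 8.44% of all probe sets. With shS100A10_5, 1 of the 16 did, beside 21.0%. That gene was KRT76, a keratin of the palate (change -0.69; limma, adjusted p = 0.130). KRT23, next by p, had -0.45 (adjusted p = 0.404) at an intensity between 10.3 and 23.0 on the 6 arrays.

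KRT16, the injury-induced type I keratin and close relative of KRT14 and KRT17, was not dim. Its intensity was 373 and 354 with shS100A10_1, 362 and 496 with shS100A10_5, and 375 and 352 with shNCT, and it was named after its values were seen. Signal shared among KRT14, KRT16 and KRT17 could not be separated here. Its log2 change was -0.00044 with shS100A10_1 and 0.22 with shS100A10_5 (limma, adjusted p = 1.00 and 0.562).

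Of 25 hair and inner root sheath keratins 22 were measured, 0 passed, and medians were 0.0033 with shS100A10_1 and 4.5e-05 with shS100A10_5. Unadjusted limma p was under 0.05 for 1 with shS100A10_1 (higher), beside 8.44% of all probe sets. With shS100A10_5 it was under 0.05 for 2 (1 higher, 1 lower), beside 21.0%. The last 2 were KRT39 (0.62) and KRT73 (-0.71), with limma adjusted p = 0.236 and 0.123 and intensities of at most 23.7 and 42.5.

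**Figure D3:**
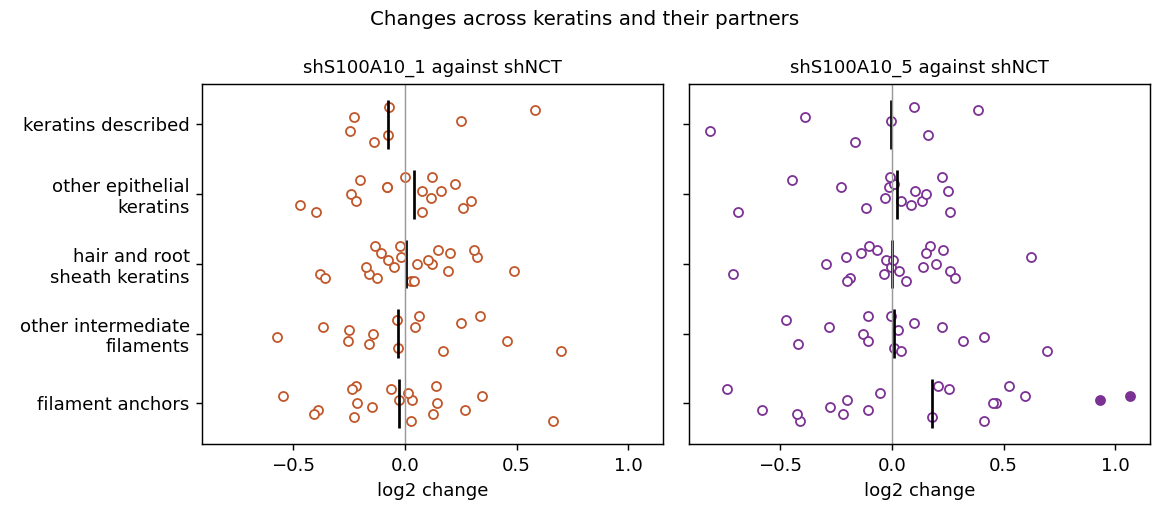
Log2 change against shNCT of each gene (1 point each) in 5 lists, for shS100A10_1 (left) and shS100A10_5 (right); filled points passed the limma threshold and vertical bars are list medians. No keratin point is filled, and the 2 filled points, in the anchor list with shS100A10_5, are JUP at 1.06 and DSG2 at 0.93.

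Other intermediate filament genes showed 0 of 15 measured past the threshold against shNCT with either hairpin. Before adjustment, limma p was under 0.05 for 1 gene each way with each hairpin. The shares of all probe sets were 8.44% with shS100A10_1 and 21.0% with shS100A10_5. Vimentin (VIM), the mesenchymal filament protein that MDA-MB-231 makes beside keratins, had intensities of 102872 and 91160 with shS100A10_1, 88636 and 83402 with shS100A10_5, and 92903 and 92358 with shNCT, with log2 changes of 0.06 and -0.11 (limma, adjusted p = 0.963 and 0.765). Nestin (NES), a filament protein of progenitor cells, differed between the hairpins. Its intensity was 148 and 139 with shS100A10_5 and 71.9 and 73.0 with shS100A10_1, a difference of 0.98 (SE 0.21; limma, adjusted p = 0.0371), with the 88.5 and 131 of shNCT in between.

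Keratin filaments attach to desmosomes and hemidesmosomes, and here calls were found. Of 19 measured anchor genes, 0 passed with shS100A10_1, while 2 rose and 0 fell with shS100A10_5, against 1.43% and 1.75% of all probe sets. For shS100A10_1, the unadjusted limma p was under 0.05 for 1 gene that was higher and 2 that were lower, beside 8.44% of all probe sets. With shS100A10_5 the unadjusted counts were even, 4 higher and 4 lower, beside 21.0% of all probe sets in either direction. The arrays stood apart from the controls for 5 higher and 5 lower, beside 50.5% of all probe sets. The list median with shS100A10_5 was 0.18, beside 0.025 over all probe sets. Between the hairpins 2 were higher and 1 lower with shS100A10_5, against 1.43% and 1.48% of all probe sets.

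JUP encodes plakoglobin, the armadillo protein that joins desmosomal cadherins to desmoplakin. Its intensity was 315 and 339 with shS100A10_1, 572 and 503 with shS100A10_5, and 250 and 264 with shNCT. The groups did not overlap, and the rise with shS100A10_5 was 1.06 on the log2 scale (SE 0.17, 2.09-fold; limma, adjusted p = 0.0145). The change with shS100A10_1 was 0.35 (adjusted p = 0.636), and the difference between the hairpins was 0.72 (adjusted p = 0.0541).

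DSG2, the desmosomal cadherin of simple epithelia, had intensities of 1871 and 2624 with shS100A10_1, 4058 and 4211 with shS100A10_5, and 2406 and 1955 with shNCT. It rose by 0.93 with shS100A10_5 (SE 0.21, 1.91-fold; limma, adjusted p = 0.0434) and had a change of 0.03 with shS100A10_1 (adjusted p = 0.989). Its partner cadherin DSC2 had 230 and 219 with shS100A10_1, 481 and 507 with shS100A10_5, and 304 and 352 with shNCT. DSC2 differed between the hairpins by 1.14 (SE 0.17; limma, adjusted p = 0.0117), from a change of -0.54 (adjusted p = 0.369) with shS100A10_1 and one of 0.59 (adjusted p = 0.0867) with shS100A10_5.

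ITGB4, the integrin subunit of hemidesmosomes, differed the other way. Its intensity was 174 and 151 with shS100A10_5 and 359 and 326 with shS100A10_1, a difference of -1.08 (SE 0.18; limma, adjusted p = 0.0168), and the 234 and 199 of shNCT lay in between. Desmoplakin (DSP), which binds keratin directly, had log2 changes of -0.22 and 0.47 against shNCT with shS100A10_1 and shS100A10_5, and plectin (PLEC), a cytolinker, had -0.24 and -0.74 (limma, adjusted p between 0.0789 and 0.863).

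**Figure D4:**
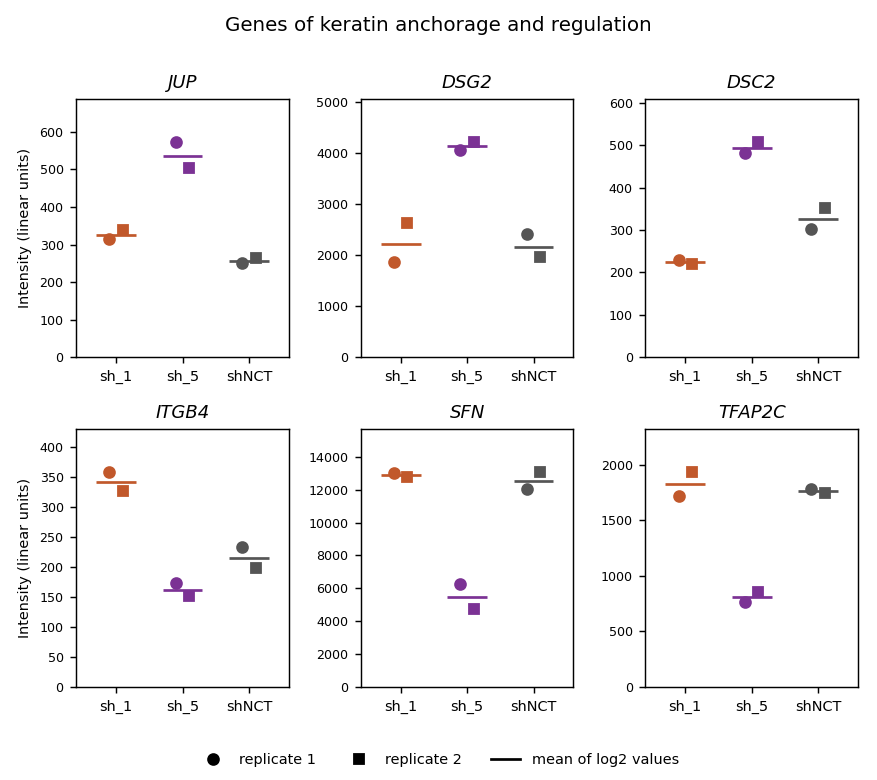
Intensity (linear units, axis from 0) of 6 genes of keratin anchorage and regulation on each array, with shS100A10_1 (sh_1), shS100A10_5 (sh_5) and shNCT from left to right; points are single arrays and bars the mean of the log2 values. The shS100A10_5 arrays stand above all others for JUP, DSG2 and DSC2 and below all others for ITGB4, SFN and TFAP2C.

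Among 8 keratin chaperones and binding proteins, SFN (14-3-3 sigma), an epithelial adaptor protein, fell with shS100A10_5 and 7 did not pass. Of all probe sets, 1.75% were called lower with shS100A10_5. SFN intensity was 13015 and 12747 with shS100A10_1, 6248 and 4760 with shS100A10_5, and 12034 and 13089 with shNCT. The log2 change was 0.04 with shS100A10_1 and -1.20 with shS100A10_5 (SE 0.19; limma, adjusted p = 0.984 and 0.0133), and the hairpins differed by -1.24 (adjusted p = 0.0117). HSPB1, a small heat shock protein, had -0.30 and -0.38 (adjusted p = 0.708 and 0.245).

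Of 11 measured epithelial transcription factors, 1 passed with shS100A10_5 and was lower, against 1.75% of all probe sets called lower. TFAP2C, the AP-2 gamma factor of luminal breast cells, had intensities of 1716 and 1938 with shS100A10_1, 762 and 852 with shS100A10_5, and 1785 and 1746 with shNCT. Its log2 change was 0.05 with shS100A10_1 and -1.13 with shS100A10_5 (SE 0.17; limma, adjusted p = 0.976 and 0.0117). TP63, ELF3, ELF5 and OVOL1 were not analysed here. Among 6 repressors of epithelial genes, SNAI1 rose by 1.75 with shS100A10_5 (limma, adjusted p = 0.00563), against 1.43% of all probe sets called higher. It had -0.56 with shS100A10_1 (limma, adjusted p = 0.428). SNAI1 intensity was 37.5 and 37.3 with shS100A10_1, 162 and 213 with shS100A10_5, and 60.4 and 50.5 with shNCT. The shS100A10_1 values lay near 34.6, the 90th percentile of the olfactory receptors.

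Of 8 measured cornified envelope genes, which terminal keratinocytes use, 0 passed against shNCT by limma with either hairpin. Before adjustment, limma p was under 0.05 for 0 with shS100A10_1, and 1, FLG, with shS100A10_5, beside 8.44% and 21.0% of all probe sets. Filaggrin (FLG) had 30.0 and 62.6 with shS100A10_5 and 17.1 and 18.3 with shS100A10_1, a difference between the hairpins of 1.29 (SE 0.29; limma, adjusted p = 0.0454). Of the olfactory receptors, 77.4% were dimmer than FLG, and its difference was 0.76 (adjusted p = 0.142) without replicate 2 of shS100A10_5.

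The calls with shS100A10_5 given next were lost in fits with an array left out, while each of these genes kept its direction. Such a fit leaves 1 array in a group and is less precise, so a lost call alone does not show that 1 array carried the change. Without replicate 2 of shS100A10_5, the array with the strongest span trend of the 6, the values were 1.16 for JUP (limma, adjusted p = 0.0993), 0.90 for DSG2 (0.197), -1.01 for SFN (0.122), -1.21 for TFAP2C (0.0993) and 1.55 for SNAI1 (0.0993). With the same array left out, the differences between the hairpins were 1.10 for DSC2 (0.105), -0.97 for ITGB4 (0.114), 1.03 for NES (0.159), -1.04 for SFN (0.101) and -1.26 for TFAP2C (0.0794). Against shNCT, JUP, SFN and TFAP2C also missed the threshold without either shNCT array, SNAI1 without shNCT replicate 2 (0.0537), and DSG2 without any shNCT or shS100A10_5 array, with array weights (0.0789) and with the span trend removed (0.0509).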

How the data were processed

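The deposited table holds 1 normalized intensity per probe set and array, made by the authors on a linear scale with Transcriptome Analysis Console, per the submitters' processing notes; its version and genome build, the background correction and the normalization are not given here. Deposited intensities, put on a log2 scale, end at 5 decimals. Of 16965 probe sets 15674 had 1 gene symbol, 0 several and 1291 none, and 0 pairs of arrays were identical.

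Log2 intensities of all 6 arrays were fitted with a mean per group (lmFit and eBayes of limma 3.58.1, R 4.3.3; 3 residual and 7.16 prior degrees of freedom), with 3 two-sided contrasts and Benjamini-Hochberg adjustment across every probe set at 0.05. The fit was also run on simulated data with independent noise for each probe set and array. That run checks the code only, since it leaves out deviations shared across an array, such as the span trend.

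Members and lists were chosen with earlier results of these data known. All members, S100A10, up to 4 called genes per list (or else the 2 with the smallest p with shS100A10_5) and the 5 genes most like the most variable member were named; DSP, PLEC, VIM, HSPB1, KRT16, KRT18P55, CDH1, EPCAM and CD68 were added after their values were seen, as was the olfactory receptor comparison. No sequence was printed, since none bore on a call for a member. Alternatives covered normalization, filter, variance prior, weights, block, groups fitted, probe sets per gene, an added 16, gene span and arrays left out.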

Additional observations from a re-analysis of the deposited data

Results flagged for a closer look

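No group had enough arrays for a test of single outlying arrays. The genes below differed between the hairpins by the test of that difference (limma, adjusted p under 0.05), given as shS100A10_5 minus shS100A10_1 on the log2 scale. No keratin was among them. S100A10 itself differed by 2.70, with less of it left with shS100A10_1. Among filament anchors, DSC2 differed by 1.14, DSG2 by 0.90 and ITGB4 by -1.08. SFN differed by -1.24, TFAP2C by -1.18, SNAI1 by 2.31, NES by 0.98 and FLG by 1.29. The FLG arrays with shS100A10_1, at 17.1 and 18.3, lay near the olfactory receptor median of 16.4, so its difference is one from dim signal. It was 0.84 with 16 added to each intensity, and it passed in 1 of 6 fits with an array left out and in 6 of 11 other settings. DSG2 lost this call whichever array was left out (adjusted p between 0.0552 and 0.285) and passed in 5 of 12 other settings. With an array left out, NES passed in 2 of 6 fits, DSC2 and ITGB4 in 3 each, SFN and TFAP2C in 4 each and SNAI1 in all 6. The part of the unequal knockdown in these differences was not tested.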

How the results depend on the processing

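Of 372 values of the keratins under other settings, 355 kept their direction and their side of the threshold, 5 passed it and 12 changed sign. The 5 were KRT19, in the settings given above and, between the hairpins, with an intensity trend (adjusted p = 0.0463). So the count of keratins called with shS100A10_5 against shNCT was 1 in place of 0 with the filter on dim probe sets, with the trend and with 16 added, and 0 to 1 with an array left out; between the hairpins it was 1 with the trend.

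Sign changes concerned values near 0. KRT7 with shS100A10_5 was 0.016 with median centring, and KRT14 between the hairpins was 0.062 with the span trend removed. With an array left out, KRT5 with shS100A10_1 ran from -0.44 to 0.30 and between the hairpins from -0.21 to 0.54, and KRT7 with shS100A10_5 from -0.12 to 0.12. KRT14 ran from -0.34 to 0.063 with shS100A10_1, from -0.37 to 0.038 with shS100A10_5 and from -0.13 to 0.084 between the hairpins, and KRT18 between the hairpins from -0.44 to 0.12.

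Counts over all probe sets were 32, 539 and 494 for shS100A10_1, shS100A10_5 and the difference between them. They were 60, 952 and 791 with the filter, 98, 1454 and 1144 with the trend, 89, 242 and 287 with array weights, and 58, 1045 and 882 with 16 added. Fitted with only the groups compared, the first was 16 and the third 291. With an array left out they ran from 8 to 16, from 3 to 994 and from 7 to 656, the lowest of the last 2 without replicate 2 of shS100A10_5. With the replicate number as a block they were 33, 625 and 561, and KRT19 with shS100A10_5 had adjusted p = 0.0559. Deviations of same-numbered arrays correlated by 0.188 between the hairpin groups and by -0.022 and -0.035 between them and shNCT. The planned fit did not take the numbers as pairs. With 2 arrays a group, these correlations cannot settle whether same-numbered arrays share a batch. The block ended 1 call, that of DSG2 between the hairpins (adjusted p = 0.0506). With 2 arrays a group, changes well under 2-fold could rarely pass, and dim keratins could not be separated from background.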
